A study of Mus musculus with 20 samples.

Results

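Dual-specificity phosphatases of the MAP kinase phosphatase family other than Dusp5 were examined in cultured mouse eosinophils that carried or lacked Dusp5. The members were Dusp1, Dusp2, Dusp3, Dusp4, Dusp6, Dusp7, Dusp10, Dusp14 and Dusp16, taken by their symbol in the platform annotation. They were 9 of the 17771 genes with an unambiguous probe set on the array. All 9 were among the 11766 genes tested, and each had 1 probe set.

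MAP kinases are switched on by phosphorylation of a threonine and a tyrosine in their activation loop, and these phosphatases switch them off by removing both phosphates. Members differ in location and substrate: Dusp1, Dusp2, Dusp4 and Dusp5 act in the nucleus, Dusp6 and Dusp7 act on ERK in the cytoplasm, and Dusp10 and Dusp16 act mainly on JNK and p38. Several of their genes are themselves switched on by the MAP kinases they oppose, which makes them feedback regulators. Dusp5 acts on ERK.

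Eosinophils were grown from the bone marrow of Dusp5+/+ (wild-type) and Dusp5-/- (knockout) mice, with 5 mice per genotype. On day 12 of culture the cells were left in medium or given IL-33 at 25 ng/ml for 4 h. IL-33 is an alarm cytokine of barrier tissue that activates eosinophils through its receptor ST2. The 4 groups were wild type untreated, knockout untreated, wild type with IL-33 and knockout with IL-33, each with 5 arrays, and mice are numbered 1 to 5 within a genotype. The same culture scheme served all groups, and the deleted part of Dusp5 is not given in the labels. The eosinophil genes Epx and Prg2 (granule proteins), Siglecf, Ccr3 and Il5ra (surface receptors) were above the 40th percentile of the array on all 20 arrays. Epx lay between 12.85 and 13.81 and Il5ra between 6.48 and 8.75 on the log2 scale. Genes listed as markers of other cells were read as well. Over the 20 arrays the summed log2 level ran from 14.97 to 15.47 for the eosinophil list, 13.63 to 14.49 for neutrophils, 12.75 to 13.67 for monocytes, macrophages and dendritic cells, 13.21 to 13.70 for mast cells and basophils, and 6.67 to 9.40 for lymphocytes. Each list has its own probe sets, so these ranges compare arrays within a list and not cell types with each other. The deposited log2 values had medians of 4.25 to 4.32 per array. Precision here is set by having 5 arrays in each group.

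Both arrays of wild-type mouse 2 lay farthest from their group means. The SD over genes of an array's deviation from its group mean was 0.27 on each of them and 0.13 to 0.23 on the other arrays. Both arrays of wild-type mouse 3 came next, at 0.23. The genotype comparisons are given with and without wild-type mouse 2.

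Dusp5 itself followed the labels on all arrays. In wild-type untreated cells it read 8.25, 8.51, 7.85, 8.21 and 7.94 in mice 1 to 5, and with IL-33 it read 9.84, 10.23, 9.28, 9.67 and 9.85. In knockout cells it read 4.24, 4.85, 4.51, 4.36 and 4.02 untreated and 4.99, 5.06, 4.68, 4.88 and 5.15 with IL-33. Every knockout array lay below every wild-type array, 13.5-fold lower on average when untreated and 28.3-fold lower with IL-33. With IL-33, Dusp5 rose by 1.62 ± 0.17 (SE) in wild-type cells (limma adjusted p = 1.4e-07) and by 0.56 ± 0.17 in knockout cells (adjusted p = 0.00810). When knockout mouse 5 was left out, the rise there was 0.41 and not called (adjusted p = 0.0668). Whether its probe set lies within the deleted part was not tested.

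Promoter windows from RefSeq (GRCm38.p6), 250 bases before to 50 after the annotated start, were found for 9 of the 10 genes made up of the members and Dusp5. They are shown for Dusp5, the gene lost, and for Dusp1, Dusp6 and Dusp16, which stood out by their response to IL-33, by genotype or by their variation between mice. Each is written 5′ to 3′ along the gene's strand, and capitals mark matches to the motifs searched. The Dusp5 window is chr19:53528895-53529194 (+), the Dusp1 window chr17:26508423-26508722 (-), the Dusp6 window chr10:99262981-99263280 (+) and the Dusp16 window chr6:134792579-134792878 (-).
Dusp5: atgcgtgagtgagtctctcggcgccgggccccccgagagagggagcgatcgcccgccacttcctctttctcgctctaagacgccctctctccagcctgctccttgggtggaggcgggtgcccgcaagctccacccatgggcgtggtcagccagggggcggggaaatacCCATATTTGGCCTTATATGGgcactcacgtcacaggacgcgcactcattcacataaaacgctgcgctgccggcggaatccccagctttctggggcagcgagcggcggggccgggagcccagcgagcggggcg
Dusp1: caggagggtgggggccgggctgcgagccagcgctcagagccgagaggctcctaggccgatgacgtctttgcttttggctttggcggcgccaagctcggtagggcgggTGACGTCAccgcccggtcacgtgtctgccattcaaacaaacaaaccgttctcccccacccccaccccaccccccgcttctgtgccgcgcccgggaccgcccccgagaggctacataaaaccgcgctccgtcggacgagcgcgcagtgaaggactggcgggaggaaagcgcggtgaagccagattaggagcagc
Dusp6: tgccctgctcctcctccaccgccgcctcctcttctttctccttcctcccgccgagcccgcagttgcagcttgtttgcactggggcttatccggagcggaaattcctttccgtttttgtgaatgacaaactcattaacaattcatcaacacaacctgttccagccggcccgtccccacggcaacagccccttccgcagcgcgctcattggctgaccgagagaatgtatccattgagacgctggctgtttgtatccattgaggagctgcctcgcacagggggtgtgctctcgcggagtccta
Dusp16: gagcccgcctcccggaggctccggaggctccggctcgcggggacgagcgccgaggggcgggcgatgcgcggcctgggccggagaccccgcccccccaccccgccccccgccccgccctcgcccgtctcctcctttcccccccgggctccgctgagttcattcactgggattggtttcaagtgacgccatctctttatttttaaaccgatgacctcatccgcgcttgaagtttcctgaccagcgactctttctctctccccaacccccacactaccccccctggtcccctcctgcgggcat
The motifs were the cAMP response element TGACGTCA, the AP-1 motif TGANTCA, the ETS motif CCGGAAG, and the NF-kB and CArG (serum response factor) motifs, searched on both strands. In the Dusp5 window, 2 adjacent CArG matches began at -82 and -72 from the start. In the Dusp1 window, 1 cAMP response element began at -143. No match lay in the other 7 windows, and no matches overlapped. The Dusp16 window lay inside its annotated gene, whose 5′ end is at 134807063, so its outermost start was not searched. The Dusp3 and Dusp14 windows lay inside their genes as well. Of all 32851 windows in the table, 1.63% held a CArG match, 1.79% the cAMP response element, 7.81% the AP-1 motif, 8.86% the ETS motif and 4.51% the NF-kB motif.

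The first comparison asked which phosphatases changed with IL-33 in normal cells, where Dusp5 rises as well. In wild-type cells 5 of the 9 members rose (Dusp16, Dusp4, Dusp2, Dusp10 and Dusp6), 3 fell (Dusp1, Dusp7 and Dusp3), and Dusp14 was not called. Dusp16 was the most responsive, 6.26-fold higher. Of all genes tested, 16.1% were called higher and 26.7% lower at a limma adjusted p under 0.05. The median change was 0.65 over the members and -0.05 over all genes tested. In knockout cells the calls had the same directions, 5 members higher and 3 lower, beside 18.9% and 33.2% of all genes, with a median of 0.85 against -0.08.

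Among the nuclear phosphatases, Dusp1 fell while Dusp2 and Dusp4 rose. Dusp1, an immediate-early gene whose product acts on p38, JNK and ERK, read 9.35, 9.84, 9.31, 9.48 and 9.30 in wild-type untreated cells and 8.75, 9.05, 8.53, 8.84 and 8.60 with IL-33. In knockout cells it read 9.39, 9.90, 9.55, 10.13 and 9.82 untreated and 8.70, 9.14, 8.69, 9.16 and 9.11 with IL-33. Every IL-33 array was below every untreated array, and Dusp1 fell by 0.71 ± 0.14 in wild-type cells (adjusted p = 5.4e-04) and by 0.80 ± 0.14 in knockout cells (adjusted p = 1.1e-04). Its level was lower with IL-33 in 10 of 10 mice.

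Dusp2, a phosphatase of activated leukocytes, read 4.81, 5.11, 5.00, 4.63 and 5.00 in wild-type untreated cells and 6.18, 6.09, 5.83, 5.99 and 5.82 with IL-33. Knockout arrays read 4.93, 5.26, 5.20, 4.94 and 5.37 untreated and 6.67, 6.18, 7.13, 6.42 and 6.57 with IL-33. The 4 groups were ordered: the untreated groups overlapped, both lay below wild type with IL-33, and knockout with IL-33 lay highest. Those last groups were only just apart, since wild-type mouse 1 and knockout mouse 2 both round to 6.18. Dusp2 rose by 1.07 ± 0.14 in wild-type cells (2.10-fold, adjusted p = 4.1e-06) and by 1.45 ± 0.14 in knockout cells (2.74-fold, adjusted p = 4.3e-08).

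Dusp4, which acts in the nucleus on ERK and JNK, read 5.26, 5.01, 5.46, 5.28 and 5.25 in wild-type untreated cells and 6.52, 6.40, 6.47, 6.52 and 6.24 with IL-33. The knockout arrays read 5.38, 5.28, 5.57, 5.64 and 5.66 untreated and 6.49, 6.31, 6.59, 6.70 and 6.64 with IL-33. The genotypes overlapped under each treatment, and the untreated and IL-33 arrays did not. The rise was 1.18 ± 0.10 in wild-type cells (2.26-fold, adjusted p = 5.3e-09) and 1.04 ± 0.10 in knockout cells (2.05-fold, adjusted p = 2.1e-08).

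**Figure D1:**
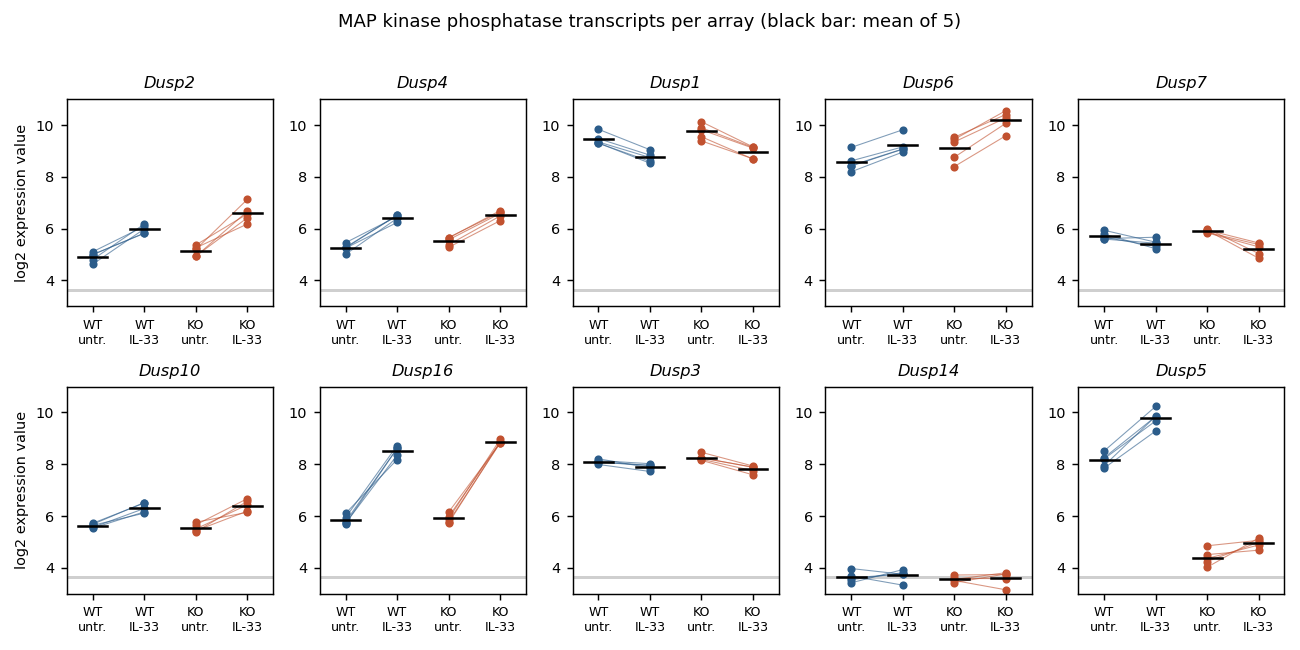
Log2 expression value (vertical axis) of the 9 phosphatases and of Dusp5 on each of the 20 arrays, by group (horizontal axis). Points joined by a thin line are the untreated and the IL-33 array of 1 mouse, the black bar is the mean of 5 and the grey band is the range of the arrays' 40th percentile; Dusp16 rose in all 10 mice, Dusp1 was lower with IL-33 in all 10, and Dusp14 lay at the band.

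The ERK phosphatases of the cytoplasm moved in opposite directions. Dusp6, a feedback inhibitor whose transcription follows ERK activity, read 8.42, 9.14, 8.44, 8.62 and 8.20 in wild-type untreated cells and 9.07, 9.82, 9.08, 9.16 and 8.96 with IL-33. In knockout cells it read 8.40, 9.35, 8.76, 9.45 and 9.53 untreated and 9.59, 10.28, 10.07, 10.56 and 10.41 with IL-33. Neighbouring groups overlapped throughout, while within each mouse the IL-33 array was the higher one in 10 of 10 mice. The rise was 0.65 ± 0.23 in wild-type cells (1.57-fold, adjusted p = 0.0270) and 1.08 ± 0.23 in knockout cells (2.12-fold, adjusted p = 5.3e-04). The wild-type call was lost on leaving out the untreated array of mouse 1, 3 or 5 (adjusted p = 0.0563, 0.0541 and 0.0740) or the IL-33 array of mouse 2 (change 0.50, adjusted p = 0.0856). With mouse as a block it had an adjusted p of 2.9e-06.

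Dusp7 fell. Its probe set is of a kind whose probes may match other transcripts as well. Wild-type arrays read 5.62, 5.94, 5.67, 5.60 and 5.79 untreated and 5.67, 5.48, 5.32, 5.44 and 5.23 with IL-33, and knockout arrays 5.84, 6.00, 5.94, 5.86 and 5.95 untreated and 5.30, 5.04, 4.86, 5.39 and 5.45 with IL-33. The knockout groups did not overlap, whereas in wild type the IL-33 array of mouse 1 lay within the untreated range. Dusp7 fell by 0.71 ± 0.11 in knockout cells (adjusted p = 1.2e-05) and by 0.30 ± 0.11 in wild-type cells (adjusted p = 0.0272). The wild-type call was lost without the untreated array of mouse 2 or 5 or the IL-33 array of mouse 3 or 5 (adjusted p = 0.0752, 0.0571, 0.0601 and 0.0793), and after quantile normalization (-0.21, adjusted p = 0.132). It was kept with mouse as a fixed or a random block.

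Both phosphatases of JNK and p38 rose. Dusp16, which acts on JNK and p38, read 5.78, 5.94, 6.10, 5.70 and 5.72 in wild-type untreated cells and 8.61, 8.72, 8.18, 8.61 and 8.35 with IL-33. Its knockout values were 5.78, 6.15, 5.73, 5.89 and 5.97 untreated and 8.82, 8.82, 8.85, 8.96 and 8.85 with IL-33. The untreated groups overlapped, and knockout with IL-33 lay above wild type with IL-33 on every array. The rise was 2.65 ± 0.10 in wild-type cells (adjusted p = 4.8e-14) and 2.95 ± 0.10 in knockout cells (7.75-fold, adjusted p = 6.6e-15).

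Dusp10, which acts on JNK and p38 and is known for its role in lymphocytes, read 5.68, 5.56, 5.72, 5.53 and 5.64 in wild-type untreated cells and 6.52, 6.29, 6.50, 6.16 and 6.11 with IL-33. Its knockout values were 5.76, 5.43, 5.50, 5.39 and 5.66 untreated and 6.14, 6.19, 6.43, 6.57 and 6.67 with IL-33. Treatments did not overlap and genotypes did. The rise was 0.68 ± 0.11 in wild-type cells (1.61-fold, adjusted p = 3.7e-05) and 0.85 ± 0.11 in knockout cells (1.81-fold, adjusted p = 1.8e-06).

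The small phosphatases without a MAP kinase binding domain moved little. Dusp3, which acts on ERK and JNK, had group means of 8.10 ± 0.08 (SD, n = 5) in wild-type untreated, 8.26 ± 0.12 in knockout untreated, 7.90 ± 0.12 in wild-type IL-33 and 7.81 ± 0.14 in knockout IL-33 cells. It was lower with IL-33 in 10 of 10 mice. Dusp3 fell by 0.20 ± 0.08 in wild-type cells (adjusted p = 0.0462) and by 0.45 ± 0.08 in knockout cells (adjusted p = 7.2e-05). The wild-type call was lost on leaving out the untreated array of mouse 1, 2, 3 or 4 (adjusted p = 0.0613, 0.104, 0.0670 and 0.0842) or the IL-33 array of mouse 2, 3 or 5 (0.0846, 0.0513 and 0.134). After quantile normalization it was -0.13 (adjusted p = 0.168), and it was also lost with no filter on dim probe sets (adjusted p = 0.0683) and with only the 2 groups compared (0.0568). With mouse as a fixed or a random block the Dusp3 call was kept. Dusp14 had group means of 3.64 ± 0.21, 3.56 ± 0.11, 3.72 ± 0.23 and 3.61 ± 0.27 in the same order and exceeded the 40th percentile on 12 of 20 arrays. Its change was 0.07 ± 0.13 in wild-type cells (adjusted p = 0.671) and 0.05 ± 0.13 in knockout cells (adjusted p = 0.774), so at this signal no difference was detectable.

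**Figure D2:**
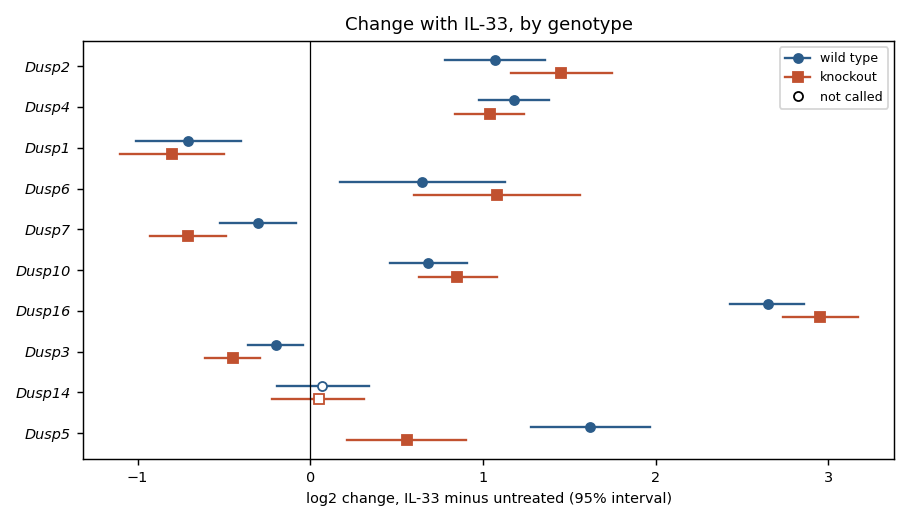
Change with IL-33 (log2, IL-33 minus untreated, horizontal axis) of each phosphatase and of Dusp5 in wild-type and knockout cells, with 95% intervals from limma over 5 arrays per group. Filled symbols are called at an adjusted p under 0.05 and open symbols are not; Dusp16 is farthest to the right at 2.65 and 2.95, and Dusp1, Dusp7 and Dusp3 lie to the left of 0.

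The second comparison asked whether another phosphatase was higher in resting cells without Dusp5. None of the 9 members was called, beside 0.0170% of all genes called higher and 0.00850% lower. At an unadjusted p under 0.05, Dusp4 and Dusp6 were higher, 2 of 9 members, beside 1517 of 11766 genes (12.9%). Dusp6 was 0.53 ± 0.23 higher on the log2 scale, with a 95% interval of 0.05 to 1.01 (adjusted p = 0.383), and Dusp4 was 0.25 higher with an interval of 0.06 to 0.45 (adjusted p = 0.383). The interval was -0.00 to 0.60 for Dusp1, -0.06 to 0.52 for Dusp2 and -0.16 to 0.27 for Dusp16. Intervals of the other members ran from -0.35 (Dusp14) to 0.41 (Dusp7). Without the untreated array of wild-type mouse 2 the count over all genes went from 3 to 15, and without both of its arrays, a setting chosen after seeing the data, to 651. No member was called in either fit. Dusp6 was then 0.68 higher (adjusted p = 0.103 and 0.0587) and Dusp1 0.40 higher (0.112 and 0.0773).

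The third comparison asked the same after IL-33. Dusp6 and Dusp2 were higher in knockout cells, 2 of 9 members, and no member was lower, beside 0.986% of all genes called higher and 1.22% lower. Dusp6 was 0.96 ± 0.23 higher (1.95-fold, 95% interval 0.48 to 1.44, adjusted p = 0.0373). Its groups overlapped by 1 array on each side, wild-type mouse 2 at 9.82 and knockout mouse 1 at 9.59. Dusp2 was 0.61 ± 0.14 higher (1.53-fold, 95% interval 0.32 to 0.90, adjusted p = 0.0336), with no overlap between the genotypes. Dusp16 did not overlap either and was 0.36 ± 0.10 higher (1.29-fold, 95% interval 0.15 to 0.58), with an adjusted p of 0.0627 that missed the threshold. At an unadjusted limma p under 0.05 there were 2836 of 11766 genes (24.1%). The share of all genes without overlap was not counted in any comparison, so a lack of overlap does not set a member apart.

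For the other members the difference after IL-33 was not called, and the intervals bound its size. Dusp1 differed by 0.21, with an interval of -0.09 to 0.51 (adjusted p = 0.386). Dusp4 differed by 0.12 (-0.08 to 0.32, adjusted p = 0.477), and Dusp10 by 0.09 (-0.14 to 0.31, adjusted p = 0.663). Dusp7 was -0.22 (-0.44 to 0.00, adjusted p = 0.210), Dusp3 -0.09 (-0.26 to 0.07) and Dusp14 -0.11 (-0.37 to 0.16). None of these intervals shows that the genotypes were equal.

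Both genotype calls after IL-33 lay near the threshold and were lost on leaving out most of the single arrays. The differences stayed at 0.87 to 1.11 for Dusp6 and 0.48 to 0.71 for Dusp2 in these fits. Dusp6 was called in 2 of 10 fits that left out 1 array of the comparison, without wild-type mouse 2 (1.11, adjusted p = 0.00862) and without knockout mouse 1 (1.11, adjusted p = 0.0133). Without any other array its adjusted p lay between 0.0796 and 0.104 and its difference between 0.87 and 0.99. Dusp2 was called in 3 of 10, without wild-type mouse 2 (0.64, adjusted p = 0.0159), knockout mouse 1 (0.59, adjusted p = 0.0287) or knockout mouse 2 (0.71, adjusted p = 0.0158), and otherwise had adjusted p values of 0.0550 to 0.0917. Dusp16 was called without wild-type mouse 2 (0.42, adjusted p = 0.0177) and without knockout mouse 1 (0.37, adjusted p = 0.0438). Dusp16 was also called with a filter at the 60th percentile (adjusted p = 0.0455) and after quantile normalization (0.0493). With no filter (0.0855), mouse as a random block (0.0741) or only the 2 groups compared (0.116) Dusp16 was not called. Without both arrays of wild-type mouse 2, a setting chosen after seeing the data, Dusp6 was 1.11 higher (adjusted p = 0.00439), Dusp2 0.64 (0.0101) and Dusp16 0.42 (0.0125). The number of genes called over the whole array moved with the same arrays: 260 genes in all, 1659 without the IL-33 array of wild-type mouse 2, 1049 without that of knockout mouse 1, and 33 to 82 without any other single array. With mouse as a random block 514 genes were called, among them Dusp6 (adjusted p = 0.0187) and Dusp2 (0.0426), and with only the 2 groups compared neither was (0.0672 and 0.102).

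**Figure D3:**
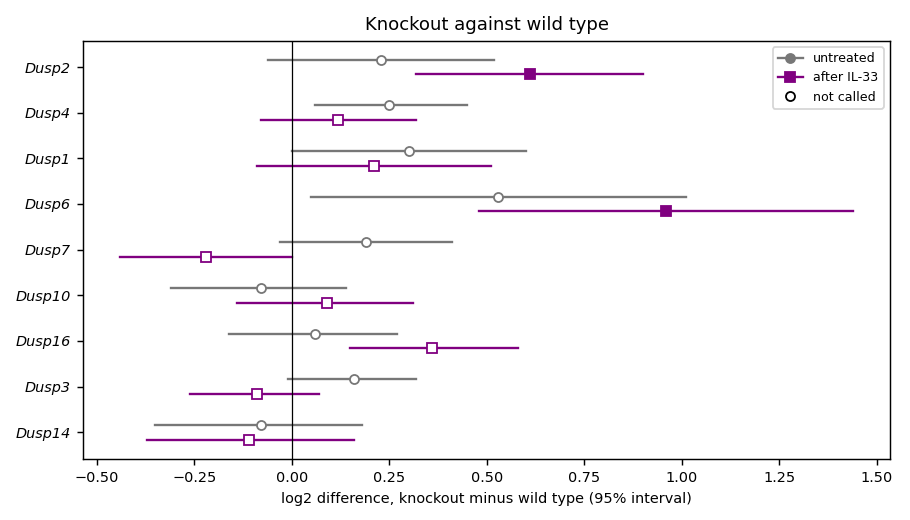
Knockout minus wild type (log2, horizontal axis) for each of the 9 phosphatases, untreated (circles) and after IL-33 (squares), with 95% intervals from limma over 5 arrays per group. Filled symbols are called at an adjusted p under 0.05 and open symbols are not; Dusp6 at 0.96 and Dusp2 at 0.61 after IL-33 are the filled ones.

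The fourth comparison tested whether the response to IL-33 itself differed between genotypes. No gene was called, 0% in either direction, and none of the members was. At an unadjusted p under 0.05 there were 568 genes (4.83%). With mouse as a random block 26 genes were called and as a fixed block 0, none of them a member. Per mouse, the Dusp6 rise ran from 0.54 to 0.76 in wild-type and from 0.87 to 1.31 in knockout cells, with no overlap. The interaction for Dusp6 was 0.43, with a 95% interval of -0.25 to 1.11 (adjusted p = 0.999) in the fit that does not pair the arrays of a mouse. With mouse as a fixed block the interval was 0.23 to 0.63 (unadjusted p = 4.6e-04, adjusted p = 0.116), and as a random block 0.01 to 0.85 (unadjusted p = 0.0445, adjusted p = 0.386). Dusp7 had -0.41 (unadjusted p = 0.0121 and adjusted p = 0.860), Dusp3 -0.25 with per-mouse changes that did not overlap either (unadjusted p = 0.0348 and adjusted p = 0.992) and Dusp16 0.31 (unadjusted p = 0.0462 and adjusted p = 0.999). Dusp2 had 0.38, with an interval of -0.03 to 0.80. With the fixed block the Dusp3 interval was -0.41 to -0.09 (adjusted p = 0.198) and the Dusp7 interval -0.73 to -0.09 (adjusted p = 0.247). The fixed block left 1633 genes at an unadjusted p under 0.05, and after adjustment over all genes no member passed in any of these fits.

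When the arrays of each mouse were averaged, so that 5 mice stood against 5, no member was called, beside 0.0340% of all genes called higher and 0.00850% lower. Dusp2 was 0.42 higher in knockout mice with no overlap (unadjusted p = 9.9e-04 in limma, adjusted p = 0.219). Dusp6 was 0.75 higher (unadjusted p = 0.00462, adjusted p = 0.219) and Dusp16 0.21 (unadjusted p = 0.00874, adjusted p = 0.219). Dusp4 was 0.19 higher (unadjusted p = 0.0495, adjusted p = 0.256). These 4 members had an unadjusted p under 0.05, beside 2281 of 11766 genes (19.4%). Without wild-type mouse 2, Dusp2 was called at 0.46 and Dusp6 at 0.89 (adjusted p = 0.0278 for both), and Dusp16 at 0.25 (adjusted p = 0.0324). The count over all genes then went from 5 to 1468.

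The variation between mice was largest for Dusp6, with a within-group SD of 0.40, against 0.24 for Dusp1 and Dusp2, 0.16 for Dusp16 and 0.12 for Dusp3. For Dusp6 and Dusp1 it belonged to the mouse: the deviation of a mouse's untreated array from its group mean and that of its IL-33 array had a correlation of 0.95 for Dusp6 and 0.92 for Dusp1 over 10 mice. It was 0.65 for Dusp4 and 0.64 for Dusp3, and between -0.32 and 0.06 for the other members. Over 20 arrays of 10 mice, the deviations of Dusp1 and Dusp6 correlated at 0.90, the highest of 36 pairs of members. The next were Dusp3 with Dusp4 at 0.60 and Dusp16 with Dusp1 and with Dusp6 at 0.52, and the lowest was Dusp7 with Dusp14 at -0.45. The Dusp6 window held no match to the motifs searched, so the search could not show a motif shared with Dusp1.

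The same deviations moved with a list of genes used as markers for monocytes, macrophages and dendritic cells. Of 10 genes listed for monocytes, macrophages and dendritic cells, 8 had a probe set (Csf1r, Adgre1, Itgax, Cd68, C1qa, C1qb, Mrc1 and H2-Ab1) and none was below the 40th percentile throughout. Their summed log2 level was 12.75 to 13.43 in wild-type untreated, 12.92 to 13.45 in knockout untreated, 13.17 to 13.64 in wild-type IL-33 and 13.18 to 13.67 in knockout IL-33 cells. Its deviation from the group mean correlated at 0.86 with that of Dusp6 and at 0.92 with that of Dusp1 over the 20 arrays. Over all genes tested the median correlation was 0.01, and 7.11% of genes lay above 0.8. With the eosinophil marker level the correlations were -0.84 for Dusp6 and -0.90 for Dusp1. In these bulk samples, fewer cells of a type and less RNA per cell cannot be told apart, and their part in the result was not tested. The monocyte, macrophage and dendritic cell sum is weighted to its brightest genes, of which Adgre1 reached 12.63 and Csf1r 11.32. Whether the eosinophils themselves expressed these genes was not tested. With IL-33, 2 of the 8 markers rose in wild-type cells, Csf1r by 0.62 and Adgre1 by 0.70, and none fell, with a list median of 0.05. In knockout cells the same 2 rose and 2 fell, Cd68 by 0.49 and C1qa by 0.40, with a list median of -0.13.

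With the summed marker level as a covariate, a setting chosen after seeing the data, Dusp6 after IL-33 was 0.77 higher in knockout cells (adjusted p = 0.00376), Dusp2 0.63 (adjusted p = 0.0176) and Dusp16 0.33 (adjusted p = 0.0488). The rise of Dusp6 with IL-33 in wild-type cells was then 0.19 and no longer called (adjusted p = 0.271). The marker level itself was higher with IL-33, at a mean of 13.35 against 13.03 untreated in wild-type cells and 13.48 against 13.22 in knockout cells. Such a covariate takes out part of any change with IL-33, so no conclusion is drawn from the lost call. Under both treatments the mean marker level was also higher in knockout than in wild-type cells. The covariate can therefore take out part of a genotype difference too, and no conclusion is drawn from the genotype calls of this fit. Over both treatments it gave 0.51 for Dusp6, 0.44 for Dusp2 and 0.15 for Dusp16. Without it these were 0.75, 0.42 and 0.21, and none was called either way. The number of genes called between genotypes after IL-33 was 802 in that fit.

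**Figure D4:**
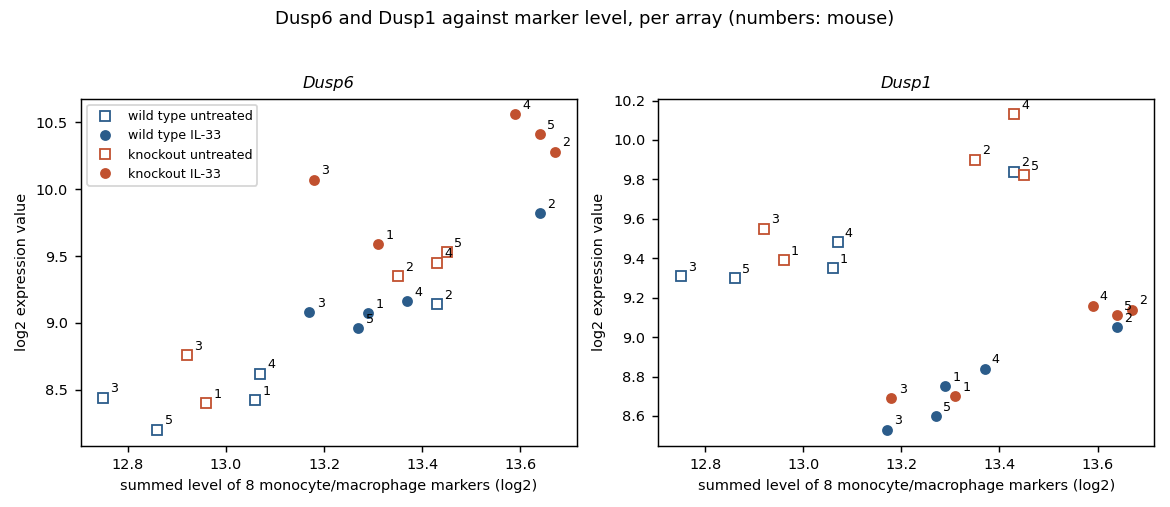
Log2 expression value of Dusp6 (left) and Dusp1 (right) against the summed log2 level of 8 monocyte, macrophage and dendritic cell markers, per array, with mouse numbers. Open symbols are untreated and filled ones IL-33 arrays, wild type in blue and knockout in red; within each group both genes tend to be higher where the marker level is higher, and wild-type mouse 2 is the highest of its group at 13.43 untreated and 13.64 with IL-33.

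Genes whose profile over the 20 arrays lay closest to a member were named for the 3 members that varied most between groups. Nearest to Dusp16 were Rnf19b, at a root mean square distance of 0.16, Relb and Bcl3, both at 0.21. Relb and Bcl3 belong to the NF-kB system. Nearest to Dusp2 were Il4 (the cytokine IL-4), Gch1 and Basp1, each at 0.22. Nearest to Dusp6 were Etv5, an ETS transcription factor induced by ERK, at 0.19, and Aqp9 and Cdkn2b at 0.22.

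Other genes of the MAP kinase pathways were counted from lists. Of the remaining typical phosphatases, Dusp8 lay between 2.26 and 3.12 and Dusp9 between 2.70 and 3.52, above the 40th percentile on 0 arrays. Of 10 atypical dual-specificity phosphatases tested, 2 rose with IL-33 in each genotype (Dusp12 by 0.57 in wild-type cells, and Styx) and 3 fell (Dusp19, Dusp28 and Dusp23, by 0.44, 0.40 and 0.30 in wild-type cells). Of 11 other phosphatases that act on MAP kinases, 3 rose in each genotype (Ppp2cb and Ppp2r2a, subunits of PP2A, and Ppm1b) and Ppm1d fell by 0.44 in wild-type cells. Over all genes, 16.1% were higher and 26.7% lower in wild-type cells and 18.9% and 33.2% in knockout cells, so counts of this size set neither list apart. None of these phosphatases was called between genotypes in any of the 3 genotype comparisons.

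Among the kinases, 4 of 8 genes of the ERK branch rose in each genotype, led by Map3k8, the kinase that links NF-kB signalling to ERK, by 3.73 in wild-type and 3.92 in knockout cells. Of this branch, 1 fell in wild-type and 2 in knockout cells. Of 7 genes of the p38 branch, 1 rose and 2 fell in wild-type cells and 3 rose and 2 fell in knockout cells. Mapkapk2, a kinase downstream of p38, rose by 1.18 and 1.22. Of 7 genes of the JNK branch, Map3k1 fell by 0.78 and 1.12, while 1 rose in wild-type and 4 in knockout cells. Of 3 ERK5 genes, Map2k5 and Map3k3 fell in both. These counts stand beside 16.1% of all genes called higher and 26.7% lower with IL-33 in wild-type cells, and 18.9% and 33.2% in knockout cells. No kinase was called between genotypes, where 0.986% of all genes were higher and 1.22% lower after IL-33 and fewer in the other genotype comparisons.

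The genes known to be induced by ERK, and the Sprouty and Spred inhibitors that feed back on it, included genotype calls after IL-33. Of 14 ERK target genes tested, 7 were higher in knockout cells after IL-33 and none was lower, beside 0.986% and 1.22% of all genes. Among them were Egr3 by 1.60 ± 0.27 (adjusted p = 0.00658), Egr1 by 1.52 ± 0.18 (1.8e-04), Phlda1 by 0.83 ± 0.13 (0.00232) and Fosl1 by 0.81 ± 0.11 (0.00142). Egr1 read 9.81, 8.94, 9.50, 9.73 and 9.71 in wild-type and 11.21, 10.47, 11.57, 10.97 and 11.06 in knockout cells with IL-33, without overlap. Leaving out any single array of the comparison kept the calls of Egr1, Egr3, Phlda1, Fosl1, Ier2 and Spred2. Those of Junb and Egr2 were lost in 8 and 6 of 10 such fits, with an adjusted p of up to 0.0917 and 0.0652. The median difference was 0.54 over the list. Of 6 Sprouty and Spred genes, Spred2 was higher by 0.89 ± 0.16 (adjusted p = 0.00977). Egr1 and Egr3 were also called over both treatments, at 1.10 and 1.38. The deviations of the 14 target genes correlated with those of Dusp6 at a median of 0.49, from -0.05 for Egr1 to 0.92 for Egr2, against 0.01 over all genes. The median was as high for the 8 ERK branch kinases, at 0.55, and 0.48 for the Sprouty and Spred genes, and the monocyte, macrophage and dendritic cell marker level correlated with Dusp6 at 0.86.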

How the data were processed

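RNA from each culture was made into biotin-labelled cRNA (3' IVT Express kit, per the labels' protocol) and measured on 20 single-colour Affymetrix arrays. The deposited table holds log2 expression values of 20630 probe sets, a unit read from the values, and they were used unchanged. How the authors corrected background, summarized and normalized is not stated in the labels or the table, so differences depend on that scaling. Names came from the platform annotation: 17826 probe sets had 1 symbol, 91 several and 2711 none. The titles of the IL-33 arrays do not name IL-33, so treatment was taken from the labels' treatment field.

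A gene was tested when it exceeded the array's 40th percentile (3.56 to 3.68) on at least 5 arrays. Groups were compared with limma 3.58.1 in R 4.3.3, 1 mean per group over all 20 arrays, with Benjamini-Hochberg adjustment over 11766 genes and calls at 0.05. The genotype over both treatments used 10 mouse means. Intervals are moderated and unadjusted. Fits were tested on simulated data with independent arrays, so that test does not cover arrays that share a mouse. Summed marker levels are the log2 of the sum of a list's unlogged values.

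The labels give untreated and IL-33 arrays the same replicate numbers, and the series text 5 mice per genotype. Deviations from the group means correlated at 0.262 to 0.783 between same-numbered arrays of a genotype, and in 10 of 10 mice the own number correlated best, so the numbers were taken to mark mice. No 2 arrays were identical.

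The members, lists and tests were chosen with earlier results of these data known. Named genes were the members, Dusp5, 5 eosinophil markers, up to 4 called genes per list and comparison with the largest change, and the 3 nearest profiles of 3 members. Egr2, Junb, Ier2 and Styx were named after their values were seen. Alternatives were no filter, a 60th percentile filter, quantile normalization, the mean of a gene's probe sets, a variance trend, mouse as a fixed or random block, only the groups compared, arrays or mice left out, and a marker covariate.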

Additional observations from a re-analysis of the deposited data

Results flagged for a closer look

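Of 40 groups of 5 arrays checked (10 genes in 4 groups), 2 held an array far from the rest of its group by Dixon's criterion (95% critical value 0.71); chance gives such an array in about 1 of 20 groups. In wild-type cells with IL-33, Dusp6 in mouse 2 was 9.82, while the other mice lay between 8.96 and 9.16. This mouse also had the highest marker level for monocytes, macrophages and dendritic cells in its group, at 13.64. In knockout cells with IL-33, Dusp16 in mouse 4 was 8.96, against 8.82 to 8.85 in the other mice.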

How the results depend on the processing

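The 9 members gave 54 results over 6 comparisons, recomputed under alternatives for 1524 values: 1418 kept direction and call, 67 lost a call, 12 gained one and 27 changed sign, in members that were not called. With IL-33, all 8 knockout calls and the wild-type calls of Dusp16, Dusp4, Dusp2, Dusp10 and Dusp1 held under every alternative run. Wild-type members called lower numbered 1 after quantile normalization and 1 to 3 on leaving out arrays or mice, against 3. Dusp14 was not tested at the 60th percentile.

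Between genotypes after IL-33, 260 genes were called. The count was 152 with no filter, 444 with the 60th percentile filter and 24 with only the 2 groups compared. It was 802 with the marker covariate and 24 to 2094 on leaving out arrays or mice. Members called higher numbered 2, but 0 with only the 2 groups compared and 0 to 3 on leaving out. They numbered 3 with the 60th percentile filter, quantile normalization or the marker covariate, where Dusp16 was added. Leaving out gave 3 to 651 genes when untreated (the highest without wild-type mouse 2), 0 to 3 for the interaction, and 5 to 1468 over both treatments, with 0 to 3 members higher. With mouse as a random replicate block (consensus correlation 0.464) there were 514 genes after IL-33, 26 for the interaction and 11 over both treatments; no call of a member with IL-33 was changed by a fixed or a random block. Over both treatments, 1434 genes and 2 members were called with no replicate block, which counts each mouse by both of its arrays, and 8 genes with the covariate. The cause of these differences was not tested.

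Small values changed sign. After quantile normalization Dusp14 with IL-33 in knockout cells was -0.01 and Dusp7 over both treatments 0.02. On leaving out arrays or mice, Dusp14 ran from -0.04 to 0.18 with IL-33 in wild-type and from -0.02 to 0.16 in knockout cells, from -0.20 to 0.00 by genotype after IL-33 and from -0.13 to 0.09 in the interaction. Dusp16 ran from -0.00 to 0.12 by genotype untreated and Dusp1 from -0.19 to 0.00 in the interaction. Over both treatments Dusp3 ran from -0.01 to 0.07, Dusp7 from -0.05 to 0.03 and Dusp10 from -0.05 to 0.04. Dusp14, at the 40th percentile, is limited by signal.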
